A study of Homo sapiens with 6 samples.

Results

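Collagens are secreted or membrane-bound matrix proteins whose chains wind around each other into a helix, and each gene encodes 1 chain. MDA-MB-231, an established human line from a triple-negative breast adenocarcinoma, expressed 10 collagen chains that are described here: COL4A1, COL4A2, COL7A1, COL18A1, COL6A1, COL6A2, COL1A1, COL5A1, COL12A1 and COL13A1. They were taken by gene symbol from a table of 28058 genes, and all 10 were found and passed the filter on low values. RNA was sequenced from 3 libraries of cells expressing a short hairpin RNA against HSF1 (shHSF1), the heat shock transcription factor, and from 3 libraries of cells expressing a control hairpin (shCTL). All cells were grown at 21% O2 and 5% CO2 in DMEM with 10% FBS and 1% P/S, and the labels give no further agent. All 6 column names of the table carry the tags TGL and cl, with cl before the replicate number, and no source used here explains either tag. Whether the 3 libraries of a group were separate cultures or clones is therefore not known, so each p-value reflects the variation among these 6 libraries alone, and that variation may be technical.

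Collagen IV chains build the sheet-like network of basement membranes, the layer that epithelial and endothelial cells rest on. Collagen VII forms the fibrils that anchor that layer to the tissue beneath, and collagen XVIII is a basement membrane proteoglycan. Collagen VI forms beaded filaments near cell surfaces, collagens I and V form fibrils, collagen XII decorates fibrils, and collagen XIII is a transmembrane collagen. In breast tumours most fibrillar collagen is known to come from fibroblasts, while carcinoma cells can make basement membrane chains themselves.

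Levels are RPKM, the reads assigned to a gene scaled by its length in kilobases and to 1000000 assigned reads, and the libraries held from 33988307 to 70449758 such reads. HSF1 was at 5.01, 4.70 and 3.84 RPKM in shHSF1 against 61.2, 53.3 and 47.9 RPKM in shCTL, a log2 fold change of -3.44 (SE 0.12, limma adjusted p = 3.78e-06). Log2 fold changes were taken after adding 0.5 to each RPKM, so low genes have changes smaller than their ratios, and a gene is called at a limma adjusted p under 0.05 over 12433 tested genes. Changes given as a number of folds are ratios of mean RPKM without the added 0.5. None of 9 fibroblast markers reached 0.5 RPKM in any library: their sum was 0.319 to 0.333 RPKM in shHSF1 and 0.119 to 0.319 RPKM in shCTL, with LUM and THY1 at 0 throughout. Of the leukocyte markers only CD68 reached 0.5 RPKM, at 94.0 RPKM in shHSF1 and 77.5 RPKM in shCTL. Of the endothelial markers only KDR did, at 2.70 RPKM in shHSF1 and 10.8 RPKM in shCTL (called lower, limma adjusted p = 1.65e-05). Vimentin (VIM), a mesenchymal filament protein abundant in this line, stood at 2076 RPKM in shHSF1 and 1903 RPKM in shCTL. The epithelial cadherin CDH1 was at 0.0280 RPKM in shHSF1 and 0.0230 RPKM in shCTL. Other genes of epithelial cells were present: the keratins KRT18 and KRT8 were at 204 and 114 RPKM in shHSF1 against 282 and 110.4 RPKM in shCTL. KRT18 was called lower (limma adjusted p = 0.0183) and KRT8 was not called (limma adjusted p = 0.719). The adhesion molecule EPCAM was called higher, at 8.26 RPKM in shHSF1 and 4.62 RPKM in shCTL (limma adjusted p = 0.00381). The labels call the cells epithelial. In such bulk RNA fewer cells of a kind and less RNA per cell cannot be told apart.

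COL4A1 and COL4A2 lie head to head on chromosome 13, with 109 bases between them in the table's annotation. The stretch between their RefSeq start sites (GRCh38.p14, chr13:110307158-110307283, 126 bases, plus strand) is the region that both genes have upstream, and is shown for that reason. Capitals mark the CCAAT and GGGCGG motifs found in it on either strand:
COL4A1 and COL4A2 shared stretch: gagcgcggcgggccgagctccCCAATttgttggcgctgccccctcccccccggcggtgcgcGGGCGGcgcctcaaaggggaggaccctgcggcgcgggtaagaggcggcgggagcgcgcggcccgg
It held 1 CCAAT and 1 GGGCGG, and 80.2% of its bases were G or C. Promoter windows of 8 members, 250 bases before to 50 after a RefSeq start, were matched by symbol, and COL1A1 and COL6A1 were not. Where a member had several windows, the first was taken. CCAAT stood in 2 of these 8 windows, those of COL4A1 and COL4A2, against 34.6% of all 35116 windows, and GGGCGG in 7 of 8 against 45.0%. The windows of COL4A1 and COL4A2 both contain the stretch above, so its CCAAT and GGGCGG count in both. The heat shock element cores GAANNTTC and TTCNNGAA, searched on both strands, stood in 6.8% and 7.7% of all windows. They matched 1 and 0 of the 8. The match was in COL7A1. Its RefSeq start, 48595329, differs from the upstream end of the gene in the annotation used for counting, 48595160. The 250 bases before that RefSeq start (chr3:48595330-48595579, minus strand) are given with the match in capitals:
COL7A1 upstream: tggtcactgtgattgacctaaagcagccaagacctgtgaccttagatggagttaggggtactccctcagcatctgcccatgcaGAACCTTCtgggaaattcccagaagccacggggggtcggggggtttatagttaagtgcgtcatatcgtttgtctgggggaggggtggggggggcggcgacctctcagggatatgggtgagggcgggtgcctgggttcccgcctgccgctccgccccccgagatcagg
A match of letters describes the sequence and is not evidence that a factor binds there.

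Of the 10 collagens, 9 were called higher in shHSF1 and none lower, and COL12A1 was not called. In these 9 genes every shHSF1 library lay above every shCTL library. Over all tested genes 17.7% were called higher, 16.1% were called lower, and 25.6% had shHSF1 above shCTL without overlap. The median log2 fold change was 0.84 over the 10 collagens and 0.04 over all tested genes. The 10 were chosen with earlier results of these data known, so these counts are not independent of that choice. The 9 calls differ in firmness: those of COL4A1, COL4A2, COL5A1, COL6A1 and COL7A1 held without any 1 of the 6 libraries, while the other 4 were lost, leaving 5 calls, without shHSF1 1, shHSF1 2 or shCTL 3, and those of COL1A1 and COL6A2 also without shCTL 1, leaving 7. Of the 10, 5 were called with a log2 change of 1 or more (COL4A1, COL4A2, COL5A1, COL6A1 and COL7A1), against 1.91% of all tested genes.

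**Figure D1:**
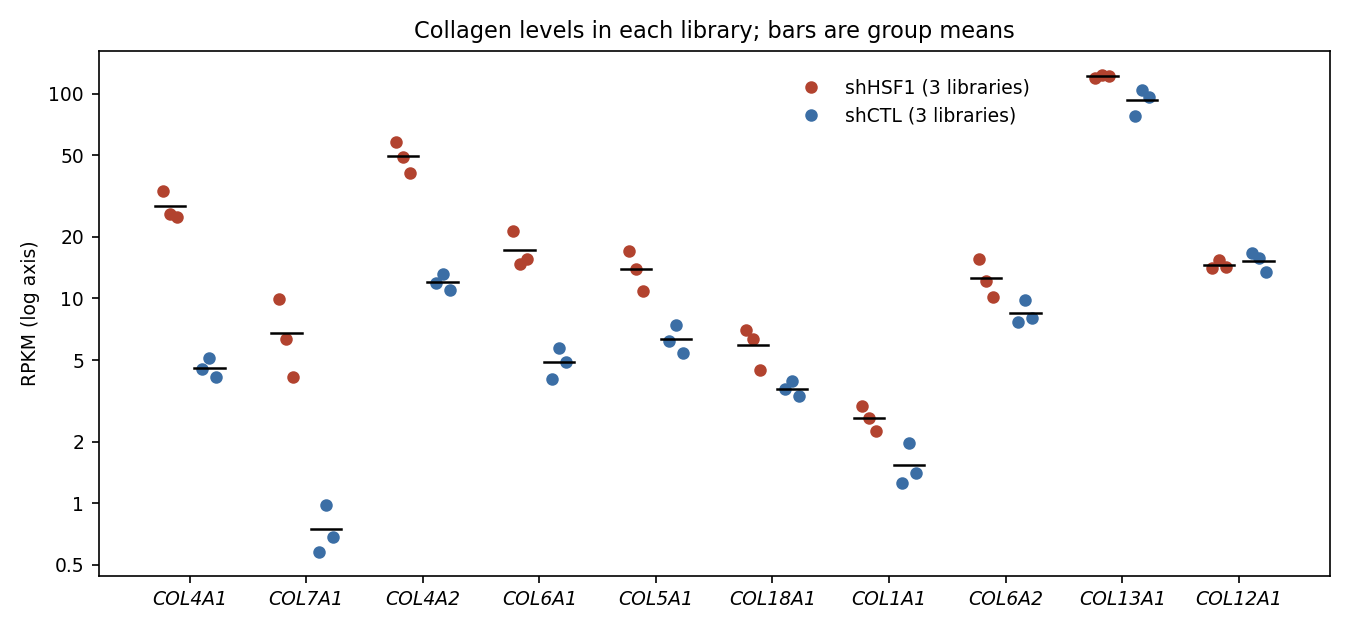
RPKM of the 10 collagens on a log axis, ordered by log2 fold change, with 1 point per library, shHSF1 left and shCTL right in each pair, and bars at the group means. COL4A1, COL4A2, COL6A1 and COL7A1 are separated by wide gaps, and the groups overlap in COL12A1.

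COL4A1 (hg38, chromosome 13, 110148958 to 110307157, minus strand, 53 exons after merging) encodes the alpha-1 chain of collagen IV. It was at 33.6, 25.9 and 24.96 RPKM in shHSF1 against 4.51, 5.10 and 4.12 RPKM in shCTL. The lowest shHSF1 library was thus far above the highest shCTL library. Group means were 28.2 ± 4.73 RPKM in shHSF1 and 4.57 ± 0.492 RPKM in shCTL (SD, n = 3 each), a 6.16-fold difference from 24479 and 4979 reads. This is a log2 fold change of 2.49 (SE 0.13, limma adjusted p = 2.25e-05).

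COL4A2 (chromosome 13, 110307267 to 110513209, plus strand, 48 exons) encodes the alpha-2 chain that assembles with it. It stood at 58.3, 49.1 and 41.1 RPKM in shHSF1 against 11.97, 13.2 and 10.96 RPKM in shCTL. The groups were again far apart, with means of 49.5 ± 8.61 RPKM in shHSF1 and 12.1 ± 1.14 RPKM in shCTL (SD, n = 3 each), a 4.11-fold difference. This is a log2 fold change of 1.98 (SE 0.13, limma adjusted p = 5.48e-05). Among all 12433 tested genes ordered from the largest rise, COL4A1 came at place 25 and COL4A2 at place 50.

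In this pair COL4A2 was the more abundant transcript per length in every library, and less so after knockdown. The ratio of COL4A2 to COL4A1 RPKM was 1.73, 1.89 and 1.65 in shHSF1 against 2.66, 2.60 and 2.66 in shCTL. The means were 1.76 ± 0.125 in shHSF1 and 2.64 ± 0.0364 in shCTL (SD, n = 3 each), and the groups did not overlap. An exact permutation test over libraries, two-sided and without regard to replicate number, gave p = 0.1, the lowest value open to 3 against 3. COL4A1 RNA therefore made up more of the pair in shHSF1 than in shCTL in each of these libraries.

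The pair lies on a part of chromosome 13 where most genes were higher in shHSF1. The 20 nearest tested genes on each side reached 10.9 Mb towards the centromere and 3.45 Mb towards the end of the chromosome from the gap between the pair. Their median log2 fold change was 0.59. Of these 40 genes 31 were called higher (77.5%, against 17.7% of all tested genes), 1 was called lower and 8 were not called. Some of the calls upward were lost when a library was left out (limma adjusted p up to 0.155). The fit with the replicate block added calls in both directions. The nearest on the centromere side, IRS2, an insulin receptor substrate 0.521 Mb from that gap, was at 10.6 ± 0.327 RPKM in shHSF1 and 5.87 ± 0.746 RPKM in shCTL (SD, n = 3 each, log2 fold change 0.81, limma adjusted p = 0.00106). The nearest on the other side, RAB20, a small GTPase 0.216 Mb from it, was at 5.28 ± 0.377 RPKM in shHSF1 and 4.32 ± 0.998 RPKM in shCTL and was not called (log2 fold change 0.28, limma adjusted p = 0.189). The groups did not overlap in IRS2 and overlapped in RAB20, and the difference between these 2 genes was not tested.

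Of the next 4 genes on each side 7 were called higher. ABHD13, LIG4, FAM155A and ARGLU1 on the centromere side were called with log2 fold changes of 0.62, 0.62, 0.58 and 0.52. On the other side NAXD, ING1 and LINC00346 were called with 0.74, 0.64 and 1.07, and CARS2 was at 0.32 without a call (limma adjusted p = 0.148; called at 0.0479 in the fit with the replicate block). The largest log2 fold change among the 40 was that of ITGBL1, an integrin beta-like secreted protein, at 7.20 ± 1.70 RPKM in shHSF1 and 1.63 ± 0.176 RPKM in shCTL (SD, n = 3 each, log2 fold change 1.83). The gene called lower was GRTP1, at 0.328 RPKM in shHSF1 and 1.71 RPKM in shCTL. ITGBL1, LINC00460 and GRTP1 were named after their values were seen.

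COL4A1 and COL4A2 rose beyond the median of this neighbourhood. None of the 40 neighbours had a log2 fold change above that of either gene, and only 5 of them reached 1. By the plain ratio of mean RPKM, ITGBL1 at 4.41-fold and the noncoding LINC00460 at 4.56-fold exceeded COL4A2 at 4.11-fold, and none exceeded COL4A1 at 6.16-fold. In each library the median log2(RPKM + 0.5) of the 40 neighbours was subtracted from that of the gene, and the differences were fitted for all genes. Relative to the neighbours COL4A1 was at 1.84, 1.44 and 1.47 in shHSF1 against -0.29, 0.07 and -0.34 in shCTL on this log2 scale. The 2 groups did not overlap, and the relative change was 1.77 (SE 0.15, limma adjusted p = 7.88e-05). COL4A2 was at 2.63, 2.35 and 2.17 in shHSF1 against 1.03, 1.36 and 0.97 in shCTL, a relative change of 1.26 (SE 0.14, limma adjusted p = 0.000434). In that fit 14.6% of 12429 genes were called higher. Over 231 other tested genes of chromosome 13 the median change on the log2 scale was 0.17, and the only one of them above COL4A1 or COL4A2 was LCP1, an actin-bundling protein. Whether the raised level of the neighbourhood reflects copies of the chromosome segment was not tested.

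**Figure D2:**
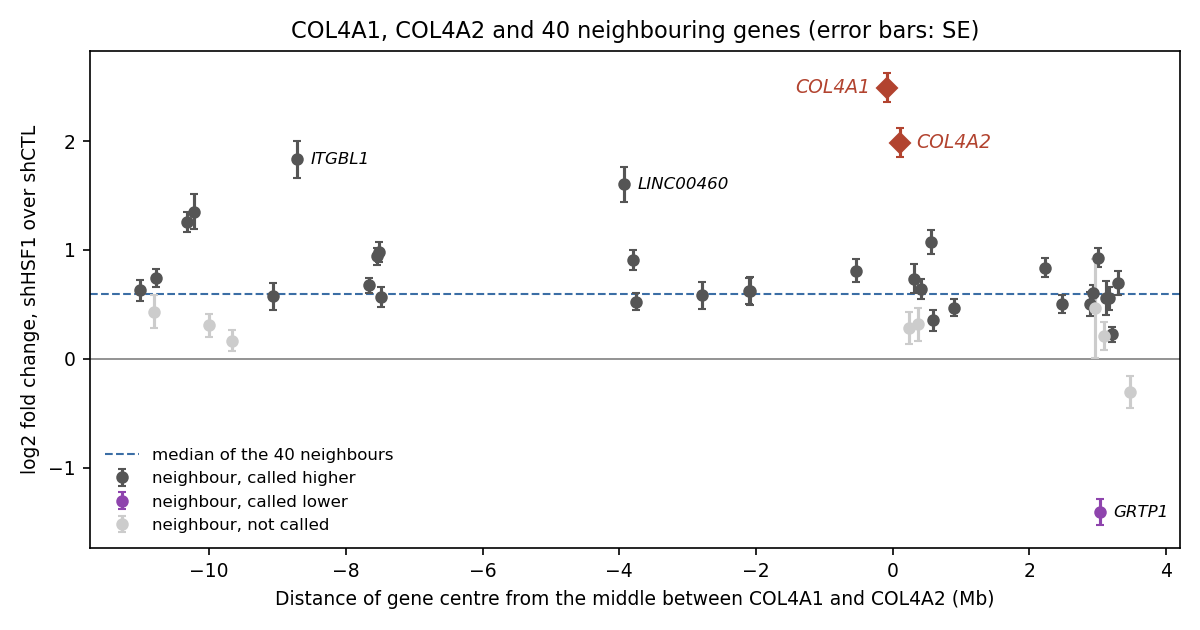
Log2 fold change (shHSF1 over shCTL, error bars SE) of COL4A1, COL4A2 and their 40 nearest tested genes against distance in Mb from the gap between the pair. Most neighbours lie near the dashed median of 0.59, and COL4A1 (2.49) and COL4A2 (1.98) stand above all of them on this scale.

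COL7A1 (chromosome 3, 48564073 to 48595160, minus strand, 118 exons), the chain of the anchoring fibrils, had the highest fold. It was at 9.99, 6.33 and 4.14 RPKM in shHSF1 against 0.579, 0.976 and 0.686 RPKM in shCTL. The shHSF1 libraries differed more than 2-fold among themselves, and the lowest of them was still above every shCTL library. The means were 6.82 ± 2.96 RPKM in shHSF1 and 0.747 ± 0.206 RPKM in shCTL (SD, n = 3 each), a 9.13-fold difference from 7438 and 955 reads (log2 fold change 2.49, SE 0.28, limma adjusted p = 0.000539). Its 40 neighbours had a median log2 fold change of 0.05, and relative to them the change was 2.36 (SE 0.22, limma adjusted p = 0.000149).

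COL18A1 (chromosome 21, 45405137 to 45513720, plus strand, 44 exons), whose protein is the precursor of endostatin, changed far less. Its level was 6.999, 6.32 and 4.48 RPKM in shHSF1 against 3.61, 3.95 and 3.32 RPKM in shCTL. The groups were close but did not overlap, with means of 5.93 ± 1.30 RPKM in shHSF1 and 3.63 ± 0.312 RPKM in shCTL (SD, n = 3 each, log2 fold change 0.62, limma adjusted p = 0.0198). Relative to its 31 neighbours it was not called (0.30, SE 0.14, limma adjusted p = 0.140). Exons of SLC19A1 on the other strand cover 16.97% of the COL18A1 exons, and the sources used here do not say whether counting used strand. SLC19A1 was listed at no more than 0.0418 RPKM.

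COL6A1 (chromosome 21, 45981749 to 46005049, plus strand, 35 exons) and COL6A2 (46098119 to 46132849, same strand, 29 exons) encode 2 chains of collagen VI. COL6A1 was at 21.3, 14.7 and 15.7 RPKM in shHSF1 against 4.05, 5.70 and 4.91 RPKM in shCTL. Its groups were widely separated, with a log2 fold change of 1.71 (SE 0.17, limma adjusted p = 0.000273). COL6A2 was at 15.6, 12.2 and 10.1 RPKM in shHSF1 against 7.70, 9.79 and 8.02 RPKM in shCTL. Its lowest shHSF1 library was just above its highest shCTL library, with a log2 fold change of 0.53 (SE 0.16, limma adjusted p = 0.0369).

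Per length the order of these chains differed between the groups. COL6A1 averaged 17.2 ± 3.58 RPKM and COL6A2 12.7 ± 2.77 RPKM in shHSF1, while they averaged 4.89 ± 0.830 and 8.50 ± 1.13 RPKM in shCTL (SD, n = 3 each). The ratio of COL6A2 to COL6A1 was 0.733, 0.831 and 0.647 in shHSF1 against 1.90, 1.72 and 1.63 in shCTL, below 1 in each shHSF1 library and above 1 in each shCTL library. The same exact permutation test gave p = 0.1, again the lowest value it can give. Relative to their neighbours, 29 and 28 genes because the chromosome ends nearby, COL6A1 was called (1.52, SE 0.16, limma adjusted p = 0.000241) and COL6A2 was not (0.22, SE 0.11, limma adjusted p = 0.170). COL6A3, the chain that completes the usual collagen VI unit, was low, at 0.688 RPKM in shHSF1 and 0.374 RPKM in shCTL, and was not called (log2 fold change 0.47, limma adjusted p = 0.0864). Its neighbours on chromosome 2 had a median of -0.31, and relative to them it was called higher (0.99, SE 0.18, limma adjusted p = 0.00405), as it was by limma-voom on recovered reads (adjusted p = 0.0269).

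**Figure D3:**
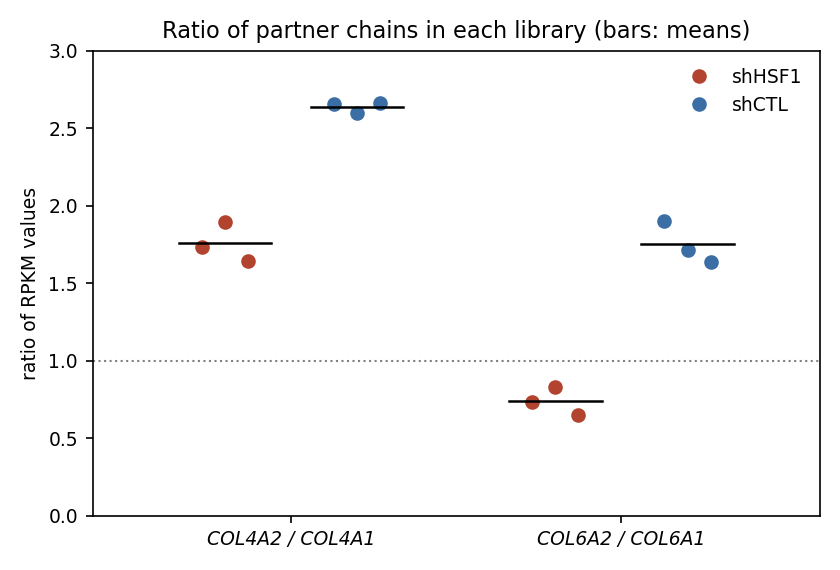
Ratio of RPKM values of partner chains in each library, with shHSF1 left and shCTL right in each pair and bars at the means. The ratio COL4A2 to COL4A1 is 1.76 in shHSF1 and 2.64 in shCTL, and the ratio COL6A2 to COL6A1 is 0.737 in shHSF1 and 1.75 in shCTL.

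Of the fibril-forming chains, COL5A1 (chromosome 9, 134641805 to 134844842, plus strand, 67 exons), which regulates fibril diameter, was at 17.1, 13.95 and 10.9 RPKM in shHSF1 against 6.21, 7.46 and 5.42 RPKM in shCTL. The groups did not overlap, and the means were 13.96 ± 3.08 RPKM in shHSF1 and 6.36 ± 1.03 RPKM in shCTL (SD, n = 3 each, log2 fold change 1.06, limma adjusted p = 0.00288). Its partner chain COL5A2 was at 0.652 RPKM in shHSF1 and 0.760 RPKM in shCTL and was not called (limma adjusted p = 0.393). COL1A1 (chromosome 17, 50184096 to 50201639, minus strand, 51 exons), the main chain of fibrillar collagen I, was low in both groups. It was at 2.99, 2.62 and 2.25 RPKM in shHSF1 against 1.25, 1.96 and 1.40 RPKM in shCTL. The gap between the groups was small, with a log2 fold change of 0.62 (SE 0.16, limma adjusted p = 0.0194). COL1A2, the other chain of collagen I, reached no more than 0.0426 RPKM in any library.

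COL13A1 (chromosome 10, 69801888 to 69959148, plus strand, 41 exons), the transmembrane collagen, was the most abundant of the 10, above 95.9% of tested genes by its mean level. It was at 119, 124 and 122 RPKM in shHSF1 against 77.6, 105 and 96.2 RPKM in shCTL. The shHSF1 libraries lay close together and the shCTL libraries were spread, with shCTL 1 the lowest. The 1.31-fold difference was called (log2 fold change 0.40, SE 0.11, limma adjusted p = 0.0267), but not relative to its neighbours (0.21, SE 0.14, limma adjusted p = 0.274).

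COL12A1 (chromosome 6, 75084326 to 75205907, minus strand, 66 exons), which binds to the surface of fibrils, was at 14.1, 15.5 and 14.3 RPKM in shHSF1 against 16.8, 15.7 and 13.5 RPKM in shCTL. The groups overlapped, and the log2 fold change of -0.06 had a 95% interval from -0.29 to 0.16 (limma adjusted p = 0.661). It rests on 19499 reads in shHSF1 and 26531 in shCTL, more than most of the other 9.

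**Figure D4:**
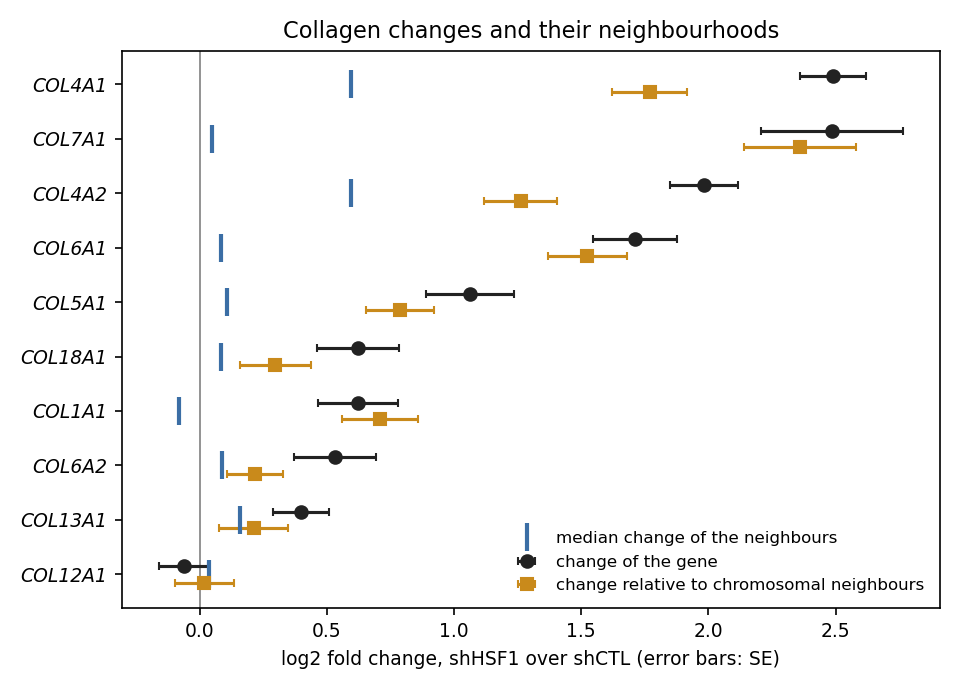
Log2 fold change of each collagen (circles), the same relative to its nearest tested genes (squares), and the median change of those genes (blue ticks), with SE as error bars. Only for COL4A1 and COL4A2 does the tick lie far from 0, and COL4A1, COL7A1, COL4A2, COL6A1, COL5A1 and COL1A1 were called relative to their neighbours.

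Relative to their neighbours 6 of the 10 collagens were called higher and none lower, against 14.6% and 15.2% of 12429 genes in that fit. The order of levels in shHSF1 was COL13A1, COL4A2, COL4A1, COL6A1, COL12A1, COL5A1, COL6A2, COL7A1, COL18A1 and COL1A1. Neighbours in this order from COL6A1 to COL6A2 overlapped, as did COL7A1 and COL18A1. In shCTL the order was COL13A1, COL12A1, COL4A2, COL6A2, COL5A1, COL6A1, COL4A1, COL18A1, COL1A1 and COL7A1, and only COL5A1 and COL6A1 overlapped with the next in line. COL7A1 thus held the last place in shCTL and the eighth in shHSF1.

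The summed level of the 10 collagens was 273 ± 24.6 RPKM in shHSF1 and 150 ± 17.3 RPKM in shCTL (SD, n = 3 each). COL4A1 and COL4A2 made 28.3% ± 2.21 of that sum in shHSF1 and 11.1% ± 1.08 in shCTL, and COL13A1 44.8% ± 4.602 and 61.6% ± 3.50 in those groups. The libraries were not uniform within groups. shHSF1 1 was the highest shHSF1 library for 8 of the 10 genes (not COL12A1 or COL13A1), and shHSF1 3 the lowest for 7. shCTL 2 was the highest shCTL library for 9 (not COL12A1). shHSF1 1 was also the most deeply sequenced of its group, with 42615678 reads, and shHSF1 3 the least, with 33988307. Among the controls the order was another: shCTL 1 was the deepest, with 70449758 reads, against 39090930 in shCTL 2. The part of depth in these differences was not tested.

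Calls among other collagens went both ways. Of 34 further collagen genes 9 passed the filter, with a median log2 fold change of -0.12. Of these 9, 1 was called higher (11.1%), 3 lower (33.3%) and 5 not called. The shares over all tested genes were 17.7% higher and 16.1% lower. Without shCTL 2 the count called higher was 2. The other 25 stayed at or below 0.677 RPKM in every library. The most abundant collagen of these cells, COL8A1, a short-chain collagen of vessel walls and the cornea, was at 134, 160 and 163 RPKM in shHSF1 against 182, 196 and 193 RPKM in shCTL. All shHSF1 values lay below all shCTL values (log2 fold change -0.33, SE 0.09, limma adjusted p = 0.0272), and the call was lost without shHSF1 1, shHSF1 2, shCTL 2 or shCTL 3 (limma adjusted p up to 0.0920). With all collagens counted, the summed level was 438 ± 12.1 RPKM in shHSF1 and 355 ± 26.5 RPKM in shCTL (SD, n = 3 each).

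COL4A4, another collagen IV chain, known from the glomerular basement membrane, was called lower. It was at 0.172, 0.160 and 0.199 RPKM in shHSF1 against 1.34, 1.67 and 1.48 RPKM in shCTL, clearly apart (log2 fold change -1.56, SE 0.12, limma adjusted p = 8.29e-05). Its neighbours on chromosome 2 had a median of -0.52, and relative to them the change was -1.11 (limma adjusted p = 0.000708). COL11A1, a fibril-forming chain, was at 0.269 ± 0.0544 RPKM in shHSF1 and 1.55 ± 0.887 RPKM in shCTL (SD, n = 3 each, limma adjusted p = 0.0112). COL27A1, a fibrillar collagen of cartilage, was the one called higher, at 3.71 ± 0.786 RPKM in shHSF1 and 2.10 ± 0.0278 RPKM in shCTL (SD, n = 3 each, limma adjusted p = 0.00953).

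Among genes that modify, fold, export and cross-link collagen, 12 of 31 tested were called higher (38.7%), 4 lower (12.9%) and 15 not called. Their median log2 fold change was 0.20. Of all tested genes 17.7% were called higher and 16.1% lower. The largest calls upward were LOXL1, COLGALT1 and LOXL2. LOXL2, a lysyl oxidase that cross-links collagen IV, was at 122, 120.5 and 113 RPKM in shHSF1 against 65.4, 72.3 and 61.9 RPKM in shCTL, with no overlap (log2 fold change 0.83, limma adjusted p = 0.000267). COLGALT1, which adds galactose to hydroxylysine, was at 106 ± 19.6 RPKM in shHSF1 and 56.3 ± 5.80 RPKM in shCTL (SD, n = 3 each), and LOXL1, a relative of LOXL2, at 3.17 ± 0.379 and 1.39 ± 0.252 RPKM in those groups. PXDN, the peroxidase that forms the sulfilimine bond of collagen IV, was also called, at 96.0 RPKM in shHSF1 and 68.7 RPKM in shCTL (limma adjusted p = 0.00356, named after its values were seen).

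LOXL4, another lysyl oxidase, fell to 2.31 ± 0.468 RPKM in shHSF1, against 24.1 ± 5.59 RPKM in shCTL (SD, n = 3 each, log2 fold change -3.12, limma adjusted p = 3.35e-05). P3H3, a prolyl 3-hydroxylase family member, and ADAMTS3, a procollagen peptidase, were called lower at levels under 2 RPKM in all libraries. SERPINH1 (HSP47), the collagen chaperone whose gene HSF1 is known to activate, was at 63.9, 56.6 and 51.0 RPKM in shHSF1 against 76.7, 64.2 and 69.2 RPKM in shCTL. Those groups were adjacent without overlap, and the gene was not called (log2 fold change -0.29, limma adjusted p = 0.0640, named after its values were seen). With the replicate number as a block it was called lower (limma adjusted p = 0.00979), and the counts of this list were then 15 higher and 6 lower.

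Basement membrane partners of collagen IV moved both ways: 5 of 15 tested were called higher (33.3%), 6 lower (40%) and 4 not called. Their median log2 fold change was -0.13. Of all tested genes 17.7% were called higher and 16.1% lower. The calls upward included FBLN1, a fibulin, at 1.24 ± 0.0311 RPKM in shHSF1 and 0.437 ± 0.101 RPKM in shCTL (SD, n = 3 each). LAMB3, a laminin beta chain, was at 114 RPKM in shHSF1 and 79.4 RPKM in shCTL, and its call was lost without each of 5 of the 6 libraries in turn (limma adjusted p up to 0.110). The count of calls upward was 1 without shHSF1 2, and 2 without shHSF1 1, shCTL 1 or shCTL 3. The largest calls downward were EFEMP1, a fibulin-like matrix protein, at 8.82 ± 0.929 RPKM in shHSF1 and 33.5 ± 2.77 RPKM in shCTL, LAMA4, a laminin alpha chain of vessels, at 0.246 ± 0.0657 and 2.12 ± 0.0792 RPKM in those groups, and EFEMP2, at 0.510 ± 0.129 and 1.52 ± 0.429 RPKM (SD, n = 3 each).

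Among collagen receptors 2 of 6 tested were called higher (33.3%), 2 lower (33.3%) and 2 not called. Their median log2 fold change was -0.03. Of all tested genes 17.7% were called higher and 16.1% lower. ITGB1, the beta-1 chain of the collagen-binding integrins, was at 522 ± 61.3 RPKM in shHSF1 and 340 ± 22.6 RPKM in shCTL (SD, n = 3 each, limma adjusted p = 0.00359). CD44, a hyaluronan receptor that also binds collagen, was at 153 ± 16.1 and 104 ± 10.8 RPKM in those groups. MRC2, the endocytic collagen receptor, was lower at 3.54 ± 0.542 RPKM in shHSF1 and 7.86 ± 1.95 RPKM in shCTL, and ITGA2, an integrin alpha chain for collagen, at 46.1 ± 2.16 and 65.9 ± 14.6 RPKM in those groups (SD, n = 3 each). The ITGA2 call was lost without shHSF1 1, shHSF1 2, shCTL 2 or shCTL 3 (limma adjusted p up to 0.0995), and 1 receptor was called lower in each of these fits, against 3 without shCTL 1.

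**Figure D5:**
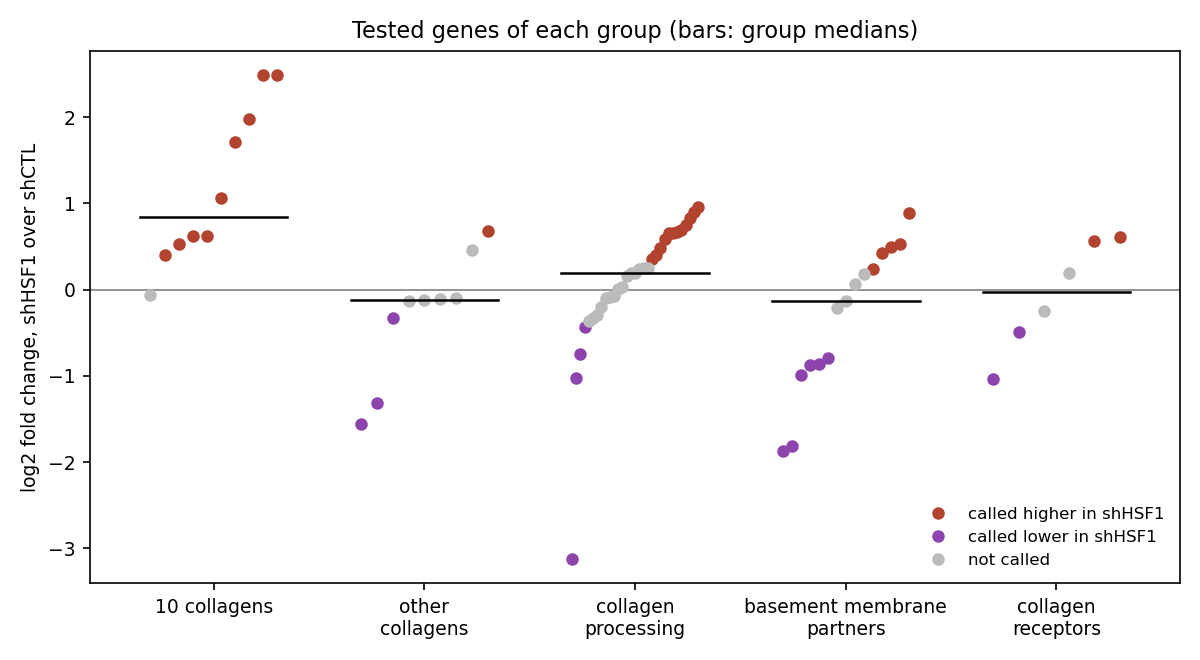
Log2 fold change of every tested gene in 5 groups, ordered within each, with bars at the group medians of 0.84, -0.12, 0.20, -0.13 and -0.03 from left to right. The 10 collagens hold no gene called lower, while each of the other groups has calls in both directions. The 10 and the lists were chosen with earlier results of these data known, so this contrast is not independent of that choice.

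Likeness of pattern was measured over the 6 libraries as the root mean square difference between log2(RPKM + 0.5) profiles, each centred on its own mean, for 12430 other tested genes. The genes closest to COL4A1 were SORCS2, ITM2A, SAA2, CEMIP and TGFBI, at differences from 0.118 to 0.171. The first 3 of them were near 0 in shCTL, where the added 0.5 sets the profile. TGFBI, a collagen-binding matrix protein, was at 15.1 ± 1.66 RPKM in shHSF1 and 1.796 ± 0.420 RPKM in shCTL (SD, n = 3 each). The genes closest to COL4A2 were TINAGL1, ACTG2, C1orf106, SLC52A3 and IGFN1, at differences from 0.0983 to 0.118. All of these but TINAGL1 were at 0.168 RPKM or less on average in shCTL, so the same limit applies to them. TINAGL1, a basement membrane glycoprotein, was at 25.5 ± 4.69 RPKM in shHSF1 and 6.39 ± 0.301 RPKM in shCTL (SD, n = 3 each). The partner chain was at place 22 for COL4A1 and at place 35 for COL4A2, with a difference of 0.260, while COL7A1 was at place 17 for COL4A1 and COL6A1 at place 20 for COL4A2. The measure also grows where the fold changes of the compared genes differ. Log2 fold changes were 2.49 in COL4A1 and COL7A1, 1.98 in COL4A2 and 1.71 in COL6A1. The places therefore do not show which gene follows COL4A1 or COL4A2 more closely among the libraries of a group.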

How the data were processed

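RNA was extracted with a column kit and libraries were made with an mRNA kit, per the labels' protocols. The authors deposited RPKM values on hg38. Per the submitters' processing notes STAR and featureCounts were used; no source used here gives their versions, the annotation release or the strand setting. The columns named shScr were taken as shCTL, with replicates matched by number. RPKM times length in kb summed to 1000000 in each column, and 100% of values were whole reads within a tolerance of 0.01; read numbers given here were recovered that way.

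The 12433 genes reaching 0.5 RPKM in 3 or more libraries entered a limma fit (version 3.58.1, R 4.3.3) on log2(RPKM + 0.5), with group as the only term, a mean-variance trend, two-sided, with Benjamini-Hochberg adjustment. For the relative fit the median of the 20 nearest tested genes on each side was subtracted per library, leaving out the other gene of the COL4A1 and COL4A2 pair and taking fewer where a chromosome end left fewer (28 to 31 in all for COL6A1, COL6A2 and COL18A1). Both fits were also run on simulated counts, drawn independently for each library with the same dispersion for all genes. That setting holds no pairing by number, so it does not test the fits under pairing, and its outcome is not given here. Same-numbered libraries deviated together from their group means (correlations 0.468, 0.307 and 0.451), and every one exceeded 0.1, which was read as pairing by number; the fit keeps the planned model without a block. Alternatives were other pseudocounts, filters, scalings, variance models and neighbour numbers, the block, leaving out each library, and limma-voom on recovered reads. The collagens, gene lists and tests were chosen with earlier results of these data known. Named genes are the 10 collagens, HSF1, the 5 nearest tested genes on each side of the pair, up to 3 called genes per list and direction, and the 5 profiles most like each of the pair; the partner chains COL5A2, COL6A3 and COL1A2, the cell type markers and LCP1 were added outside that rule, and other additions are marked where named. One gene that the rule names is not reported here. Among further collagens, antisense genes, pseudogenes and COL4A3BP, which encodes no collagen, were left out. Promoter sequences are from RefSeq on GRCh38.p14. Exact permutation tests used scipy 1.17.1, and figures matplotlib 3.10.9 in Python 3.11.15.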

Additional observations from a re-analysis of the deposited data

How the results depend on the processing

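COL4A1, COL4A2, COL5A1, COL6A1 and COL7A1 kept their direction and call under every alternative run, and COL12A1 was never called. The count of collagens called higher was 5 without a filter on low values and 5 to 9 with each library left out in turn; it was 9 with the replicate block, which changed no call among the 10 (of the other named genes it added calls for SERPINH1 and CARS2), and 9 in the other alternatives. The calls of COL1A1, COL6A2, COL13A1 and COL18A1 were those lost (limma adjusted p up to 0.108); the cause was not tested. Relative to neighbours, COL4A1 ranged from 1.64 to 2.27 and COL4A2 from 1.14 to 1.77, called throughout (limma adjusted p up to 0.00257). The median of the chromosome 13 neighbours was 0.24 without a filter, where the nearest genes include silent ones, and 0.56 to 0.64 with libraries left out. Without a filter 2 other collagens and 3 basement membrane partners were called higher and 1 collagen receptor lower. With libraries left out, these counts ranged from 1 to 2, 1 to 5 and 1 to 3. The log2 change of COL7A1 was 2.97 with a pseudocount of 0.1, 2.10 with 1, and 3.18 in limma-voom on recovered reads.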
